A study of Rattus norvegicus with 12 samples.

Results

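Cadherins are calcium-dependent adhesion proteins whose outer domains bind cadherins on neighbouring cells, and catenins are the proteins that bind their cytoplasmic tails. The members were 9 genes of these families, namely Cdh1, Cdh2, Cdh3, Cdh5, Cdh11, Cdh13, Ctnnb1, Ctnna1 and Ctnnd1, and every probe set whose single gene symbol in the platform annotation was a member was included. This gave 18 of the 31042 probe sets tested and 8 of the 14217 genes represented. Cdh5 was not analysed here. The rule that assigned probe sets to these genes used no measured value, but the genes themselves were chosen with earlier results of these data known.

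RNA was profiled in Tumor and A16 cells, both derived from F111, a normal fibroblast line of the Fischer rat. Tumor cells were cultured out of subcutaneous tumours that F111 cells, first kept without adhesion for 16 h, had formed in nude mice 3 months after injection, whereas A16 cells were uninjected F111 cells grown on plastic for 16 h. Both were cultured in Dulbecco's modified Eagle medium, with the same fetal calf serum according to the labels but with more serum for the tumour explants according to the methods of the study, and F111 is not described as a single clone. Nude mice lack mature T cells but keep their own fibroblasts, vessels and macrophages, and the arrays carry rat probe sets only. Each group had 3 arrays, which are called replicate 1, technical replicate 2 (averaged with replicate 1) and replicate 2 here, so that n = 2 per group. The labels do not say whether the replicates came from separate cultures or animals, so the p-values cover only how much these arrays differ among themselves.

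A classical cadherin binds beta-catenin (Ctnnb1) through its tail, and beta-catenin binds alpha-catenin (Ctnna1), which connects the complex to actin filaments. The product of Ctnnd1 binds the tail close to the membrane and slows the removal of cadherins from the cell surface. Beta-catenin that is not held at a junction is marked for degradation by a complex of Axin, Apc and Gsk3 kinases, and when it escapes it enters the nucleus and activates genes together with TCF factors. Fibroblasts usually carry N-cadherin (Cdh2) and cadherin-11 (Cdh11), whereas epithelial cells carry E-cadherin (Cdh1), and a change of E-cadherin for N-cadherin is a well-known feature of epithelial tumours.

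Values are log2 intensities from the RMA algorithm, and differences are Tumor minus A16 with a moderated standard error (SE) from limma. A probe set was called higher or lower at a Benjamini-Hochberg adjusted p under 0.05 over all 31042 probe sets together with a fold of at least 2. By that rule 11.9% of all probe sets were called, 5.51% higher and 6.39% lower. Intensity depends on the probes of each probe set, so that levels were compared between arrays and never between genes. Median log2 intensities lay between 6.62 and 6.64 on all arrays, and arrays correlated at 0.991 to 0.997 within a group and at 0.933 to 0.949 between groups. In RNA from whole cultures, fewer cells that carry a transcript and less of it per cell cannot be told apart.

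Control probe sets separated the 2 groups of arrays. The 3′ excess of beta-actin, the intensity of its 3′ probe set less that of its 5′ probe set, was 2.25 to 2.37 on Tumor arrays and 0.64 to 0.71 on A16 arrays. The mean 3′ excess was 0.29 in Tumor and -0.03 in A16 for Gapdh and 1.99 in Tumor and 1.01 in A16 for Hexokinase. Probe sets for transcripts that are added before labelling averaged 4.86 on Tumor arrays and 7.65 on A16 arrays. A control with no transcript added averaged 4.21 on Tumor arrays and 4.25 on A16 arrays. Whether the labelling transcripts were added to Tumor RNA was not tested. Those added before hybridisation averaged 10.99 on Tumor arrays and 9.95 on A16 arrays. Labelling and group cannot be told apart in this design, and the position of each member probe set along its transcript was not examined here.

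**Figure D1:**
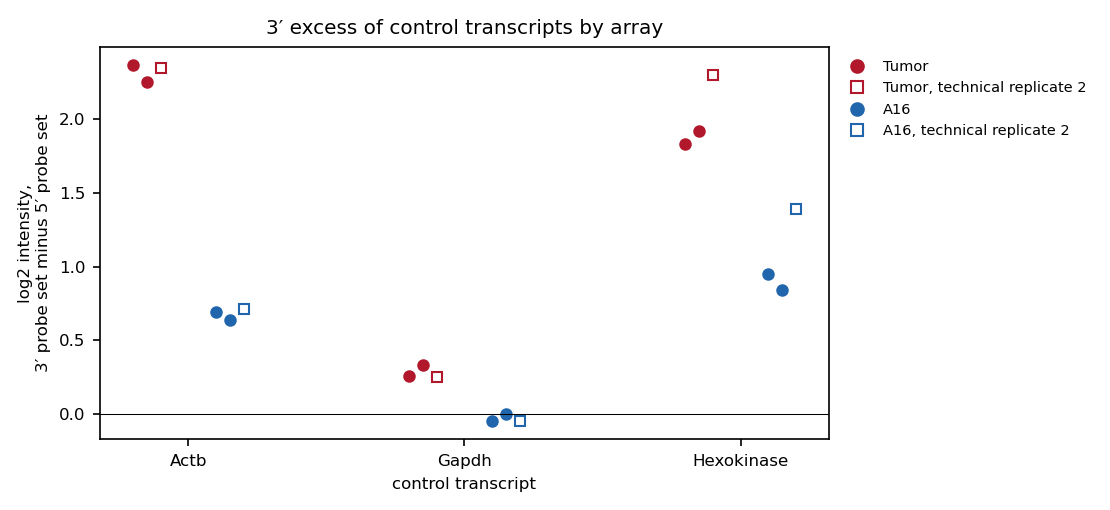
Log2 intensity of the 3′ probe set minus that of the 5′ probe set (vertical axis) for 3 control transcripts, 1 point per array, with technical replicate 2 as open squares. Tumor arrays lay above A16 arrays for all 3 transcripts, with means of 2.30 in Tumor and 0.67 in A16 for beta-actin.

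N-cadherin (Cdh2), the classical cadherin of fibroblasts, nerve and muscle, was lower in Tumor on 2 of its 3 probe sets. The probe set 1387259_at read 6.20, 6.14 and 5.98 on Tumor arrays (replicate 1, technical replicate 2 and replicate 2) and 8.46, 8.53 and 8.81 on A16 arrays. The lowest A16 array thus stood more than 2 log2 units above the highest Tumor array. The fall was -2.58 ± 0.15 on the log2 scale (SE, n = 2 per group, 95% interval -2.93 to -2.22), or 5.96-fold, with an adjusted p of 7.94e-05 in limma. The brightest probe set, 1368642_at, read 6.51, 6.18 and 6.21 on Tumor arrays and 8.44, 8.38 and 9.21 on A16 arrays. Its difference of -2.53 with RMA became -4.23 with PLIER, the other algorithm the authors applied to the same arrays, where Tumor arrays read 4.66, 5.31 and 5.13 and A16 arrays 8.91, 8.97 and 9.64. The Tumor values lie near the bottom of the PLIER scale, where the size of a change is poorly measured. The third probe set, 1378271_at, did not follow these. It read 6.46, 6.56 and 6.48 on Tumor arrays and 6.78, 6.74 and 6.64 on A16 arrays, a difference of -0.20 ± 0.11 (95% interval -0.47 to 0.07, adjusted p 0.232), and its difference with PLIER was 0.14. Relative to it, 1387259_at moved by -2.37 and 1368642_at by -2.33.

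P-cadherin (Cdh3), a classical cadherin best known from placenta and basal epithelium, had a single probe set, and this was lower in Tumor. It read 7.78, 7.78 and 7.53 on Tumor arrays against 9.42, 9.72 and 9.82 on A16 arrays. No array of either group came near the other group, and the means of 7.65 ± 0.18 in Tumor and 9.70 ± 0.18 in A16 (SD, n = 2) had equal spreads. The fall was -2.04 ± 0.15 (95% interval -2.40 to -1.69), or 4.12-fold with an adjusted p of 0.000193, and it was 5.29-fold with PLIER.

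E-cadherin (Cdh1), the classical cadherin of epithelia, lies beside Cdh3 on chromosome 19 of the GRCr8 assembly with 0 protein-coding genes between them. Both of its probe sets were dim, which here means a mean log2 intensity under 5.54, the 30th percentile of all probe sets. Intensity there is close to background, and where the mean of 1 group lies under this limit the size of a change is poorly measured. On 1386947_at, Tumor arrays read 5.63, 5.94 and 5.95 and A16 arrays 4.85, 4.95 and 4.97. All Tumor arrays were thus above all A16 arrays, in the direction opposite to Cdh3. The difference of 0.93 ± 0.12 (95% interval 0.65 to 1.22, adjusted p 0.00169) was 1.91-fold and so fell short of the 2-fold minimum. With PLIER the difference was 1.44, or 2.72-fold, with an adjusted p of 0.00071 in limma, and there the probe set was called higher. Leaving out Tumor replicate 1, and with it technical replicate 2, kept a single Tumor replicate, and the RMA difference was then 1.02. The second probe set, 1386446_at, read 4.24, 4.34 and 4.33 on Tumor arrays and 4.25, 4.59 and 4.16 on A16 arrays, and the groups overlapped.

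Cadherin-11 (Cdh11), the cadherin of mesenchymal cells and osteoblasts, had no called probe set. The probe set 1388936_at read 11.14, 11.20 and 11.14 on Tumor arrays and 11.34, 11.34 and 11.22 on A16 arrays. Its difference of -0.12 ± 0.11 had a 95% interval of -0.39 to 0.15, which lies inside a 2-fold change in either direction. The intervals of 1391088_at (-0.33 to 0.48) and 1391146_at (-0.26 to 0.26) lay inside the same bounds. Neither of the cadherin falls described above was thus seen for Cdh11, which lies on the same chromosome as Cdh3.

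T-cadherin (Cdh13) differs from the others in that it has no cytoplasmic tail and is held in the membrane by a lipid anchor, so that it binds no catenin. Its brightest probe set, 1375719_s_at, whose suffix marks probes shared by more than 1 transcript, read 5.94, 6.38 and 6.50 on Tumor arrays and 6.31, 6.24 and 6.03 on A16 arrays, and the groups overlapped. Its difference was 0.18 ± 0.16 (95% interval -0.20 to 0.56) with RMA and -0.01 with PLIER. The other 2 probe sets were dim. One of them, 1369425_at, had a difference of 0.25 ± 0.13 (adjusted p 0.224). The other, 1373102_at, depended on the algorithm, with a difference of -0.03 ± 0.12 with RMA and 0.93 with PLIER (adjusted p 0.00323 in limma, below 2-fold).

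**Figure D2:**
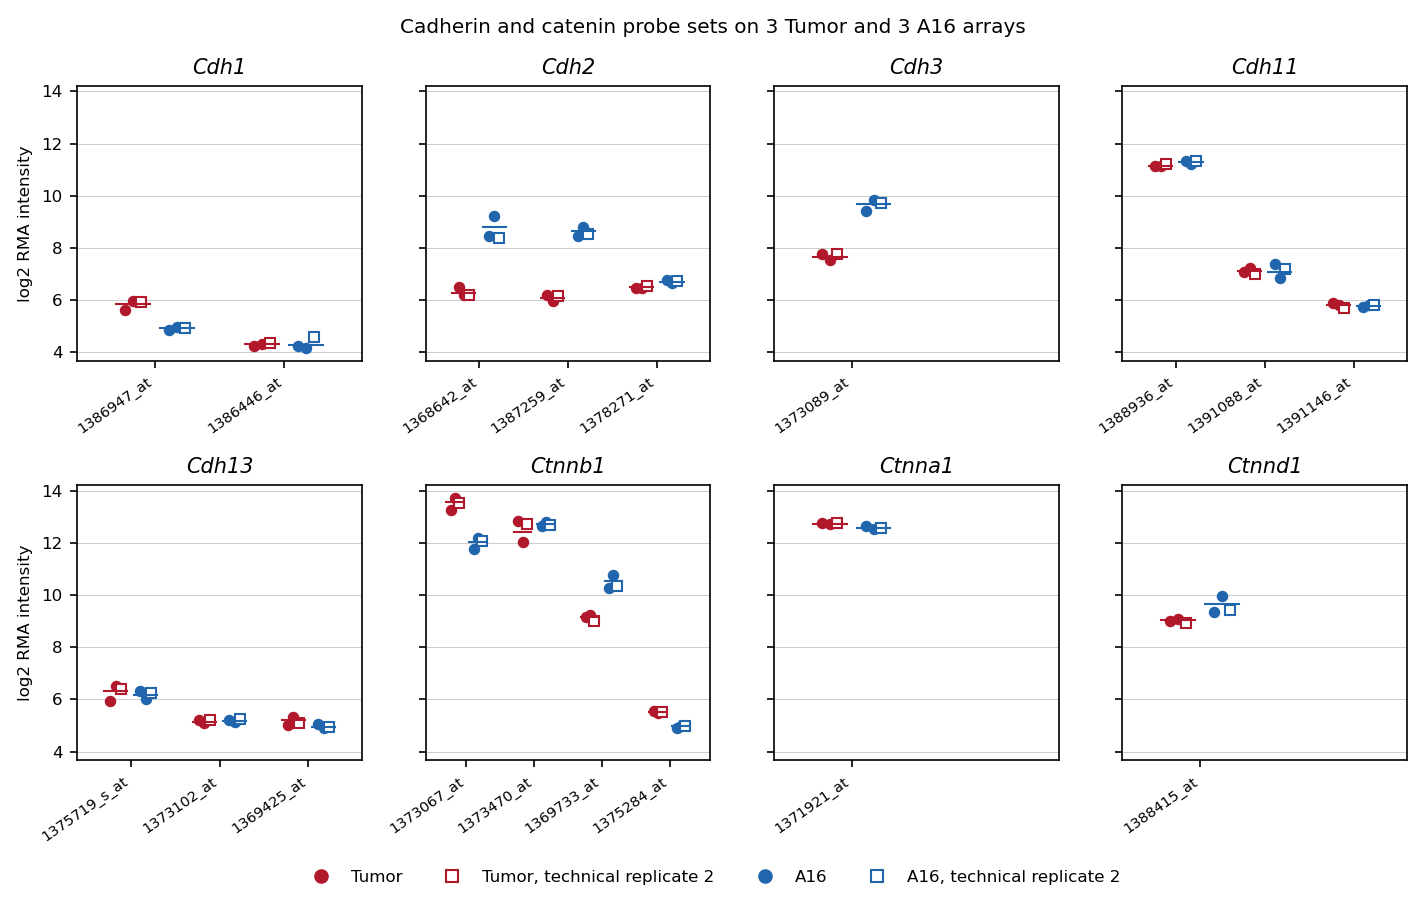
Log2 RMA intensity of each cadherin and catenin probe set (vertical axis), Tumor in red left of A16 in blue, with 1 symbol per array, open squares for technical replicate 2 and lines for the means of n = 2. Cdh2 (except 1378271_at) and Cdh3 lay lower on all Tumor arrays by more than 1 log2 unit, while the Ctnnb1 probe sets 1373067_at and 1369733_at separated in opposite directions.

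Beta-catenin (Ctnnb1), which serves both the cadherin complex and the nuclear TCF factors, had 4 probe sets, and 2 of them were called in opposite directions. The brightest, 1373067_at, read 13.27, 13.51 and 13.73 on Tumor arrays and 11.77, 12.06 and 12.18 on A16 arrays. It was higher in Tumor by 1.51 ± 0.16 (95% interval 1.12 to 1.90), or 2.85-fold, with an adjusted p of 0.000866. In contrast, 1369733_at read 9.16, 9.0 and 9.24 on Tumor arrays and 10.27, 10.34 and 10.78 on A16 arrays. Its difference was -1.38 ± 0.18 (95% interval -1.81 to -0.95), 2.61-fold lower in Tumor, with an adjusted p of 0.00178. On both probe sets all Tumor arrays lay on one side of all A16 arrays. Relative to 1369733_at, 1373067_at thus moved by 2.89, and with PLIER their differences were 1.47 and -1.54.

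The remaining Ctnnb1 probe sets lay between these. On 1373470_at, Tumor arrays read 12.83, 12.73 and 12.05 and A16 arrays 12.65, 12.69 and 12.80, where only Tumor replicate 2 was low, and the difference was -0.32 ± 0.23 (95% interval -0.87 to 0.24, adjusted p 0.369). It was -0.68 without Tumor replicate 1 and 0.05 without Tumor replicate 2. The dim 1375284_at read 5.54, 5.53 and 5.48 on Tumor arrays and 4.92, 4.99 and 4.98 on A16 arrays, a difference of 0.54 ± 0.11 (adjusted p 0.0107) that was under 2-fold. In the platform annotation 1369733_at carries a RefSeq mRNA accession, while the other 3 carry accessions of expressed sequence tags. Beside these values stands the 3′ excess of beta-actin, which was larger by 1.63 in Tumor. Its part in the split between the probe sets was not tested. In the whole table, 40 of the 4525 genes with several probe sets had probe sets called in opposite directions. No single direction is therefore given for Ctnnb1, and where a gene is counted once below, it enters by its brightest probe set.

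Alpha-catenin (Ctnna1), which joins beta-catenin to actin, read 12.75, 12.76 and 12.72 on Tumor arrays and 12.66, 12.56 and 12.53 on A16 arrays. Tumor arrays were all higher, but the difference of 0.17 ± 0.11 did not pass the test (95% interval -0.09 to 0.43, adjusted p 0.304). Ctnnd1 read 8.99, 8.93 and 9.09 on Tumor arrays and 9.33, 9.44 and 9.97 on A16 arrays. Its difference of -0.65 ± 0.20 (95% interval -1.13 to -0.17, adjusted p 0.0489) was under 2-fold and depended on the arrays included. It was -0.36 without A16 replicate 2, -0.58 without Tumor replicate 1, -0.71 without Tumor replicate 2 and -0.94 without A16 replicate 1. With PLIER it was -0.41 (adjusted p 0.105).

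In all, 1 of the 18 member probe sets was called higher, 4 were called lower and 13 were not called. The called share of 27.8% stood against 11.9% of all probe sets, but it came from only 3 genes, of which Cdh2 gave 2 probe sets in 1 direction and Ctnnb1 gave 1 in each. The choice of members with earlier results known also limits this comparison. By brightest probe set, 1 of the 8 genes was called higher, 2 lower and 5 neither way, while 5.45% of all genes were called higher and 5.44% lower. The median difference over the 8 genes was 0.02, beside 0.03 over all genes. Tumor and A16 arrays did not overlap on 11 of the 18 probe sets, where 52.6% of all probe sets had this property. Tumor arrays were above on 4 (27.6% of all probe sets) and below on 7 (25.0%). An adjusted p under 0.05, without the fold minimum, was reached by 8 of the 18 and by 31.8% of all probe sets. Of the 13 member probe sets above the dim limit, A16 replicate 2 was the highest A16 array on 7, compared with 35.2% of all probe sets above that limit. With PLIER, 2 member probe sets were called higher and 4 lower, with 15.1% of all probe sets called.

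**Figure D3:**
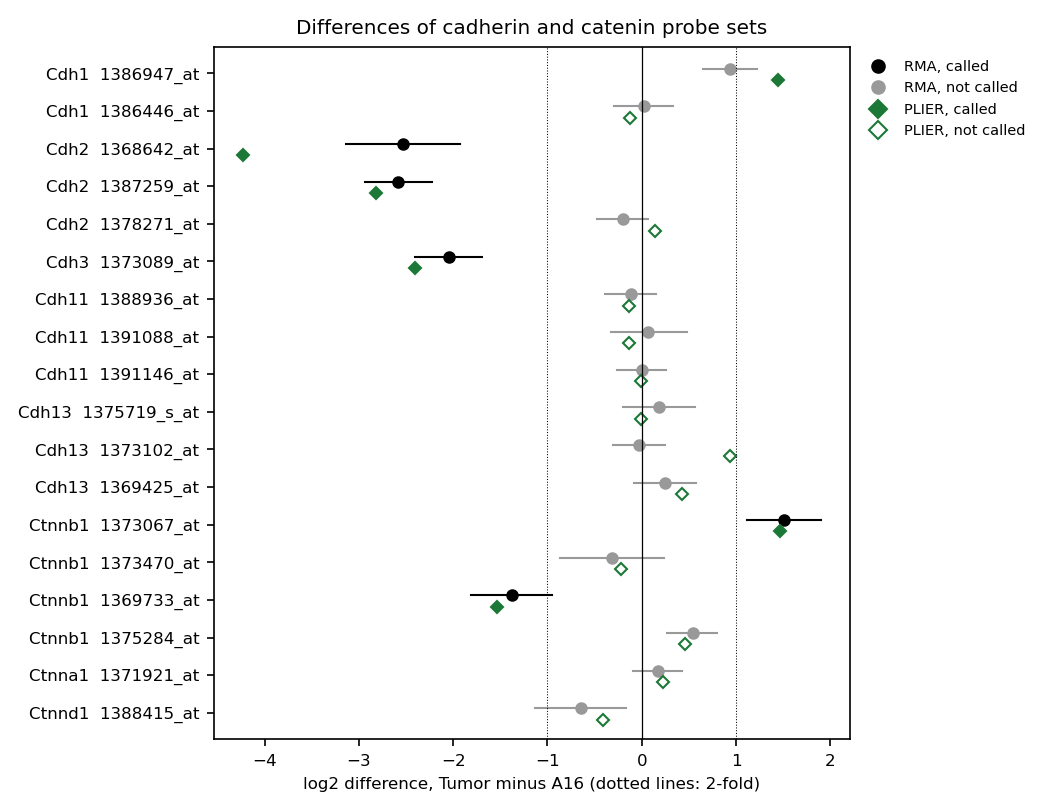
Log2 difference of each member probe set (horizontal axis, Tumor minus A16), with RMA as circles with 95% intervals (black where called) and PLIER as green diamonds (filled where called). Cdh2 and Cdh3 lay left of the 2-fold line on 3 probe sets with both algorithms, Ctnnb1 lay beyond it on both sides, and Cdh1 passed it with PLIER only.

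The genes around these members were followed in 9 further lists of 143 genes, of which 114 had a probe set of their own. Over all genes, 10.9% were called. Of the 10 other cadherins measured, 0 were called with limma and 2 had an unadjusted p under 0.05. With PLIER the dim Cdh6, which is known from kidney, was called higher (1.20, adjusted p 0.00148 in limma), where RMA gave 0.22 ± 0.14. The extremes, named after their values were seen, were Cdh17, the intestinal LI-cadherin, at 0.46 ± 0.11 and Cdh10 at -0.41 ± 0.11. The median of 0.03 was 0.20 with PLIER, -0.12 without dim probe sets and -0.03 with quantile normalization. Only 5 of the 10 were above the dim limit.

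Among 10 other catenins and armadillo proteins, 1 was called higher and 2 lower, with a median of 0.08. The higher one was Ctnnd2, a relative of Ctnnd1 best known from neurons, which read 8.86, 8.65 and 8.32 on Tumor arrays and 5.38, 5.60 and 5.34 on A16 arrays. Its A16 mean of 5.41 was under the dim limit, so no fold is given. It differed by 3.13 ± 0.17 (adjusted p 6.09e-05), in the direction opposite to the uncalled value of Ctnnd1. Plakophilin 2 (Pkp2), which links desmosomal cadherins to desmoplakin, read 5.30, 5.36 and 5.25 on Tumor arrays and 8.00, 8.03 and 8.11 on A16 arrays. Its difference was -2.77 ± 0.11 (adjusted p 2.41e-05), with a Tumor mean of 5.29 under the dim limit. Plakoglobin (Jup), the close relative of beta-catenin that binds both classical and desmosomal cadherins, read 6.33, 6.69 and 6.30 on Tumor arrays and 8.13, 8.27 and 8.51 on A16 arrays. It fell by 1.95 ± 0.15, or 3.87-fold (adjusted p 0.000241). Each of the 3 genes had 1 probe set, and the arrays of the groups lay well apart on all of them.

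Of 18 nectins and junction adaptors, 3 were called higher and 2 lower, with a median of -0.24. That median was -0.56 when all probe sets of a gene were averaged. Nectin2, an immunoglobulin-type adhesion protein of adherens junctions, fell (-1.62 ± 0.16), although its other probe sets read -0.73 and 0.07. The receptor phosphatases, which act on cadherin complexes, moved in both directions, with Ptprf (1.30 ± 0.23) and Ptprm (1.24 ± 0.15) higher and Ptprk (-1.22 ± 0.11) lower. Ptprf was under 2-fold, at 0.95, without A16 replicate 1. The other probe sets of Ptprf and Ptprm were not called, at 0.56 and 0.49, and those of Ptprk read 0.07, -0.11 and -1.25. Vinculin (Vcl), which strengthens the link of alpha-catenin to actin and is named outside the rule for named genes, was higher by 1.22 ± 0.14. This is the value of the brightest of its 3 probe sets, and the others are not given here. Of 6 desmosomal genes, only Dsg2 was called, lower and dim at -1.07 ± 0.11, and it was under 2-fold, at -0.97, without the technical replicates. The desmosomal median of -0.03 became 0.18 without dim probe sets and -0.22 with PLIER.

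Protocadherins share the cadherin repeat but bind no classical catenin. Their list, which also held giant cadherins such as Fat1 and Celsr2, had 2 called genes of 14, beside a median of 0.10. Both called genes were protocadherins and higher. Pcdh9 read 9.67, 9.56 and 9.48 on Tumor arrays and 4.42, 4.43 and 4.82 on A16 arrays. It rose by 4.93 ± 0.16 (adjusted p 1.39e-05), but its A16 mean of 4.62 was under the dim limit, so no fold is given, and its second probe set was also called higher at 1.44 ± 0.12. Pcdh18 read 8.76, 8.53 and 8.43 on Tumor arrays and 6.37, 6.77 and 6.62 on A16 arrays, a rise of 1.94 ± 0.12 or 3.85-fold (adjusted p 0.000116). The 2 called of 14 stand beside 10.9% of all genes called. With PLIER, Celsr2 was called lower (-1.20, adjusted p 0.00125 in limma), where RMA gave -0.13 ± 0.13. Of the classical cadherins, only Cdh2 and Cdh3 had probe sets called with RMA, all lower. A Cdh1 probe set was higher but under 2-fold, and Cdh11 was uncalled.

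**Figure D4:**
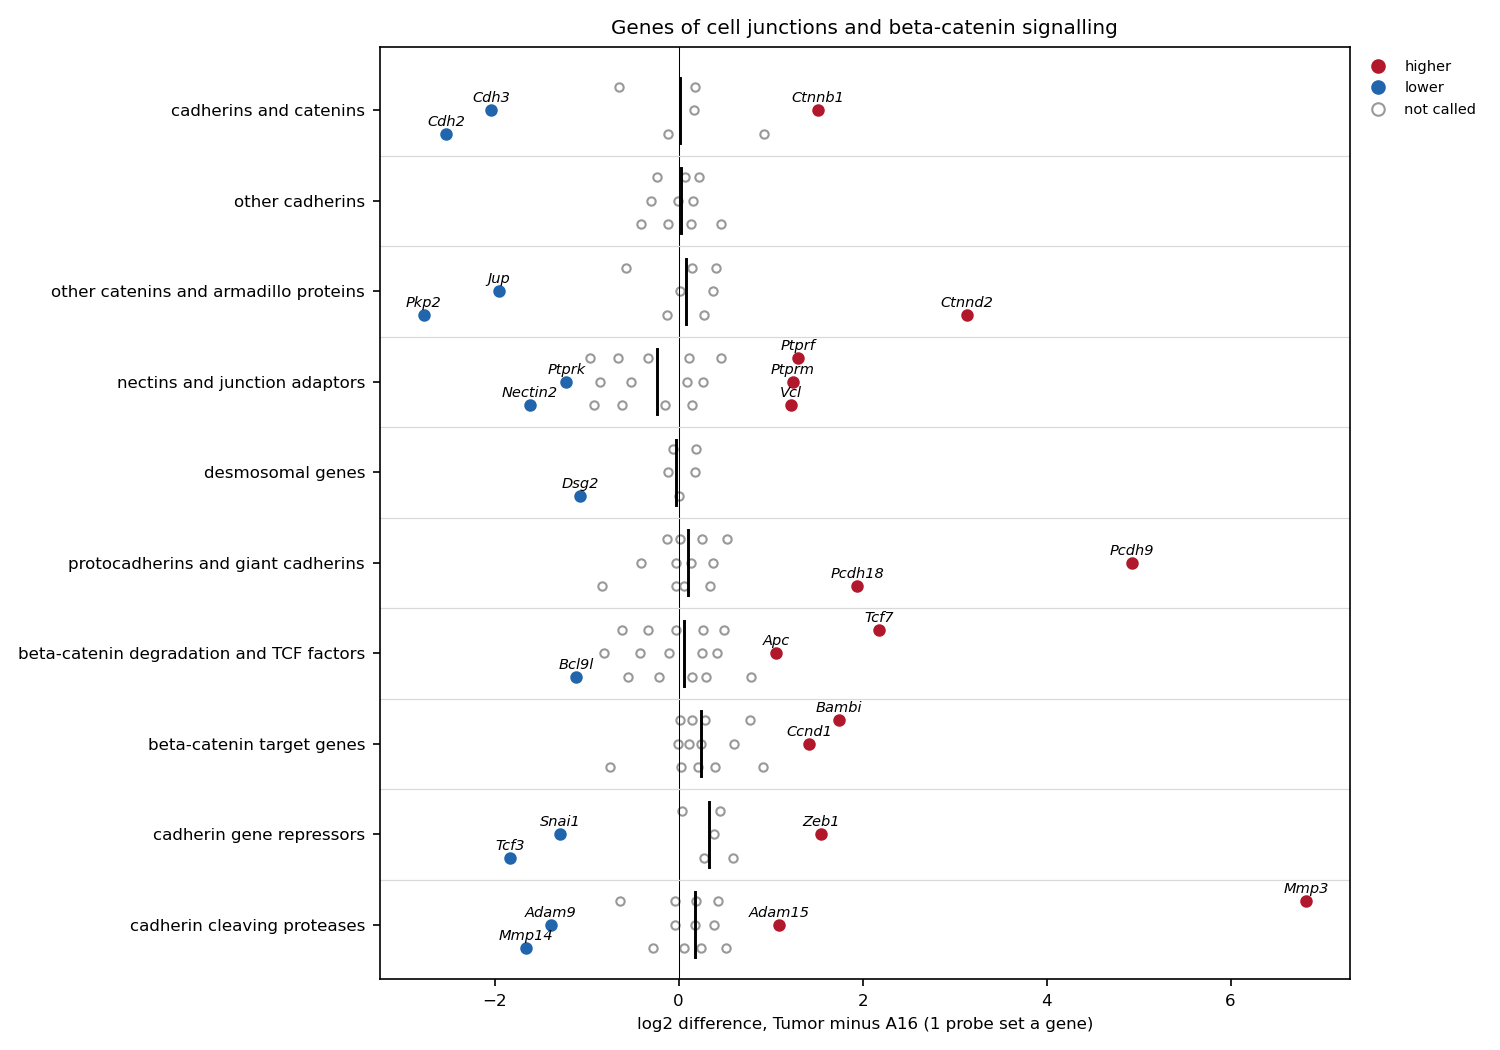
Log2 difference (horizontal axis, Tumor minus A16) of each gene by its brightest probe set, in the member list and 9 further lists, with red for called higher, blue for called lower, open circles for not called and a vertical bar for the median of the list. Called genes lay on both sides in most lists, none was called among the other cadherins, and the medians of the further lists ranged between -0.24 and 0.33.

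The pathway in which free beta-catenin acts was followed through its regulators and its targets. Of 18 genes of the degradation complex and the TCF factors, 2 were called higher and 1 lower, with a median of 0.06 that was -0.17 with PLIER. Tcf7, a TCF factor that binds beta-catenin, read 7.47, 7.75 and 7.54 on Tumor arrays and 5.12, 5.27 and 5.61 on A16 arrays, and rose by 2.18 ± 0.16 (adjusted p 0.0002), with an A16 mean under the dim limit. Apc, the scaffold of the degradation complex, was called higher at 1.06 ± 0.11, was 0.98 and uncalled with PLIER, and had other probe sets at -0.39 and 0.24. Bcl9l, a coactivator of beta-catenin, fell (-1.11 ± 0.11). The kinases Gsk3a and Gsk3b, which phosphorylate beta-catenin, were uncalled at -0.10 ± 0.19 and -0.21 ± 0.13.

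Genes known as targets of beta-catenin and TCF factors had 2 of 15 called, both higher, with a median of 0.24. That median was 0.50 without dim probe sets. Bambi, a decoy receptor of the TGF-beta family, rose by 1.74 ± 0.14 (adjusted p 0.000301). Cyclin D1 (Ccnd1), which drives entry into S phase and has many other inputs, rose by 1.42 ± 0.11 (adjusted p 0.000284), and its other probe sets read 1.33 and 0.90. Axin2, the feedback inhibitor most often used to read this pathway and named for that reason after its value was seen, read 7.19, 7.21 and 7.35 on Tumor arrays and 6.20, 6.16 and 6.81 on A16 arrays. All Tumor arrays were higher, but the difference of 0.78 ± 0.21 (adjusted p 0.0323) was under 2-fold. Lgr5, Nkd1 and Znrf3, other feedback genes, were uncalled at 0.29 ± 0.12, 0.03 ± 0.12 and 0.02 ± 0.11, and Lgr5 was dim. Larger uncalled differences in both directions were 0.92 ± 0.11 for Wif1, 0.60 ± 0.11 for Myc and -0.75 ± 0.15 for Ephb3. The A16 mean of Wif1, 5.27, was under the dim limit.

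Transcription factors that repress cadherin genes, Cdh1 above all, moved in both directions. Of 8 measured, 1 was called higher and 2 lower. With PLIER, Foxc2 was also called higher (1.26, adjusted p 0.00121 in limma), where RMA gave 0.04 ± 0.11. The median of 0.33 turned to -0.21 when all probe sets of a gene were averaged. Zeb1 read 11.06, 10.87 and 10.87 on Tumor arrays and 9.30, 9.37 and 9.40 on A16 arrays, and rose by 1.55 ± 0.11 (adjusted p 0.000195). Snai1 read 7.72, 7.83 and 7.97 on Tumor arrays and 9.01, 9.26 and 9.18 on A16 arrays, and fell by 1.29 ± 0.12 (adjusted p 0.000546). The E-protein gene Tcf3, which is no member of the TCF family above, fell as well (-1.83 ± 0.18). Zeb2 and the Twist genes were not called, at 0.59 ± 0.14 for Zeb2, 0.45 ± 0.20 for Twist1 and 0.38 ± 0.11 for Twist2. These are values of the brightest of 5 probe sets for Zeb2 and of 2 for Twist1. The other probe sets of these 2 genes are not given here and may differ.

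Proteases that cut cadherins had 2 of 15 called higher and 2 lower, with a median of 0.18. Mmp3, or stromelysin 1, which sheds E-cadherin among many matrix substrates, read 12.17, 12.09 and 12.13 on Tumor arrays and 5.61, 5.71 and 4.96 on A16 arrays, a rise of 6.82 ± 0.22 (adjusted p 1.43e-05) over an A16 mean of 5.31, under the dim limit. The membrane-bound Mmp14 fell by 1.66 ± 0.23, with its other probe set at -0.86. Adam9 fell by 1.39 ± 0.15, and Adam15 was higher by 1.09 ± 0.12, or 0.98 and below 2-fold without Tumor replicate 2. Adam10, the main sheddase of E- and N-cadherin, was uncalled at -0.28 ± 0.15.

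Both groups kept Vim, the intermediate filament gene of mesenchymal cells, at like values (14.17, 14.18 and 14.21 on Tumor arrays and 14.21, 14.23 and 14.36 on A16 arrays), with a difference of -0.10 ± 0.11 that was not called. Of 12 fibroblast markers, 4 were lower in Tumor, namely Col1a1 (-3.46 ± 0.20), Thy1 (-1.95 ± 0.11), Col1a2 and Fn1, and none was higher. The summed level of the list, on the log2 scale, was 15.70 to 15.74 on Tumor arrays and 16.32 to 16.46 on A16 arrays. Such sums were taken over linear intensities, so the brightest genes weigh most. The median difference of the list was -0.10, and -0.33 with PLIER. Of 11 epithelial markers only the keratin gene Krt8 was called, higher by 1.50 ± 0.13, and the list summed to 11.28 to 11.40 in Tumor and 10.24 to 10.36 in A16. Krt8 alone, at 11.02 in Tumor and 9.52 in A16, weighs most in this sum. The median difference of the epithelial list was 0.00, and 0.17 with PLIER. Of these 11, Epcam, Krt18, Krt19, Cldn4 and Cldn7 were dim and the other 6 were above the dim limit, of which Krt14, Cldn3, Ocln, Krt5 and Esrp1 were not called, with differences of -0.34 to 0.25. Their part in the Cdh1 value was not tested.

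Markers of other cell types that a tumour can hold gave 0 of 10 called for endothelium (summed level 9.59 to 9.68 in Tumor and 9.78 to 9.98 in A16) and 0 of 8 for neural cells (8.85 to 9.25 in Tumor and 9.33 to 9.45 in A16) with limma on RMA values. At an unadjusted p under 0.05 these were 4 and 2, and with PLIER 1 endothelial gene was called higher (Vwf), 2 were called lower (Egfl7 and Tie1) and 0 neural genes were called. Kdr, Tek, Tie1, Cldn5 and Emcn were dim, while Egfl7 (8.15 in Tumor and 8.81 in A16), Esam, Eng, Pecam1 and Vwf, 5 of the 10, were above the dim limit. Of 10 macrophage and leukocyte markers 2 were higher, Csf1r (3.14 ± 0.14, with an A16 mean under the dim limit) and Cd68 (1.07 ± 0.12). Of this list 7 were above the dim limit, among them the uncalled Cd14 (9.76 in Tumor and 9.93 in A16), Lyz2, Fcer1g, Aif1 and Itgam, and Ptprc, Tyrobp and Adgre1 were dim. That list summed to 10.78 to 10.85 in Tumor and 10.41 to 10.57 in A16. Of 9 muscle and pericyte markers, Acta2 (-1.61 ± 0.18) and Mcam (-1.28 ± 0.19) were lower, and the list summed to 10.40 to 10.65 in Tumor and 11.40 to 11.81 in A16. Their part in the cadherin and catenin values was not tested.

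The genes whose profiles over the 6 arrays were nearest to the members with the largest rise and the largest fall were listed as a description, from 14209 genes and by the Euclidean distance of centred log2 values. Since each profile is mainly a step between 2 groups, the measure mostly finds genes with a step of the same size. Nearest to Ctnnb1 (1373067_at) were Arhgap22 at a distance of 0.18, Sppl2a at 0.21, Pi16 at 0.27, Aldh3b1 at 0.30 and Krt8 at 0.31, with differences of 1.33 to 1.61. Nearest to Cdh2 (1368642_at) were Foxf1 at 0.27, Dhx58 at 0.31, Rnf213 at 0.40, Pdlim4 at 0.41 and Tmem158 at 0.42, with differences of -2.51 to -2.33. In the Cdh2 group, A16 replicate 2 was the highest array for each of these genes, as it was for Cdh2 itself.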

How the data were processed

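Biotinylated cRNA was hybridised to Affymetrix rat arrays. The 12 sample records are 6 arrays, each summarised with RMA and with PLIER. According to the study's methods, background was removed with the scanner's own program and normalisation was done in Avadis. RMA and PLIER are both named in the submitters' processing notes, with the version of each not given in the sources used here. What the authors deposited is intensity, linear for both algorithms, although the plan had assumed log2 RMA values, so log2 of the deposited values was taken here. PLIER values started at 16 on each array, an offset that appeared to be included already, so log2 was taken of PLIER values as deposited.

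The table held 31099 probe sets. After 57 array controls were left out, 31042 were tested, of which 20826 had 1 gene symbol (436 had several, 9780 none). Technical replicate 2, which carries no biological number, was averaged on the log2 scale with replicate 1 of its group. Tumor was compared with A16 in limma 3.58.1 and R 4.3.3 (functions lmFit and eBayes, two-sided tests, adjustment by Benjamini-Hochberg over all tested probe sets). Precision is limited by the number of arrays. The brightest probe set stood for a gene. Chromosomes came from RefSeq genes of the GRCr8 assembly.

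The members and the gene lists were chosen with earlier results of these data known. Named were all members, up to 4 called genes of each list with the largest differences, and the 5 nearest profiles of the members with the largest rise and fall. Genes given beside these, uncalled list members among them, were chosen after their values were seen. Alternatives were PLIER, its offset, the use of technical replicate 2, leaving out each replicate, a replicate block, a filter on dim probe sets, quantile or median normalization, a robust trended variance, the methods' t-test, no fold minimum and averaging all probe sets that a gene has.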

Additional observations from a re-analysis of the deposited data

How the results depend on the processing

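With a replicate left out, the differences of all 5 called member probe sets kept their sign and stayed over 2-fold. Averaging all probe sets of a gene gives no call for a single probe set. Under the other alternatives all 5 member calls kept their direction and side of the threshold, with 1 exception. This was the methods' t-test with adjustment, which called 0 members (4 probe sets higher and 8 lower in all). At an unadjusted p under 0.05 that test called 1 member higher and 4 lower, and 1607 and 1493 probe sets in all, but 0 of the other cadherins. Of the genes named from the lists, it lost Ptprf (p 0.0705). Members called higher numbered 2 with PLIER, 3 with PLIER at an offset of 1 and 3 without a fold minimum. Over the whole table, 3113 were called higher with PLIER at an offset of 1, and 5047 higher and 4832 lower without a fold minimum. A fit with a replicate left out kept a single replicate in that group, and without replicate 1 it also lost technical replicate 2. Counts of such fits are not given. Deviations of same-numbered replicates from their group means correlated at 0.121 over all probe sets. With n = 2 per group this value cannot show whether such replicates share a source. The replicate block gave 1715 higher and 2035 lower, with 1 and 4 members.

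Values that changed sign were uncalled with RMA. With PLIER these were Cdh1 1386446_at (-0.13, and -0.33 at an offset of 1), Cdh2 1378271_at (0.14, and 0.19), Cdh11 1391088_at (-0.14, and -0.18) and 1391146_at (-0.01 at both), and Cdh13 1375719_s_at (-0.01, and -0.03) and 1373102_at (0.93, and 1.94, which was called). With technical replicate 2 averaged into replicate 2, Cdh1 1386446_at was -0.03, Cdh11 1391088_at -0.10 and Cdh13 1375719_s_at -0.03. With it as a replicate of its own, Cdh1 1386446_at and Cdh11 1391088_at were both -0.03. With quantile normalization, Cdh1 1386446_at and Cdh11 1391146_at were both -0.05. With a replicate left out, ranges that crossed 0 were -0.12 to 0.15 for Cdh1 1386446_at, -0.14 to 0.29 for Cdh11 1391088_at, -0.02 to 0.03 for Cdh11 1391146_at, -0.09 to 0.03 for Cdh13 1373102_at and -0.68 to 0.05 for Ctnnb1 1373470_at. The cause was not tested. Values near the floor of the array, such as those of Cdh1 and Cdh13, are limited by signal over background.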
